A study of Mus musculus with 4 samples.

Results

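Myc, a transcription factor that drives cell growth, was followed together with genes of ribosome biogenesis in mouse T helper (Th) cells with and without Bach2. The set holds 44 genes chosen by name (Myc, RNA polymerase I subunits and cofactors, and nucleolar factors of rRNA processing and subunit assembly). Of the 44, 42 were among the 18749 genes named on the array, and each of the 42 was well above background on all 4 arrays, so no member was lost to the filter on low values. Nop56 and Ltv1 were not analysed here.

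Naive CD4 T cells were sorted from the spleen of C57BL/6J mice labelled female that were either Bach2 WT or Bach2 KO (Bach2flox/flox × CD4-Cre TG, where the Cd4 promoter drives Cre and thus limits the deletion to T cells). The cells of both genotypes were activated for 2 days on anti-TCR-β mAb (3 µg/ml, immobilized) with anti-CD28 mAb (1 µg/ml), and were then kept with IL-2 (2.5 ng/ml) for a further 3 days. RNA was taken before re-stimulation, or after 4 h of re-stimulation on immobilized anti-TCR-β mAb with no IL-2 added, and was hybridized to 4 one-colour whole-genome arrays, 1 per condition. The sample labels give no age and do not say whether mice were pooled. A single array stood for each condition, so conditions could not be tested against each other, and every difference below lacks a replicate check.

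Ribosomes are built in the nucleolus, where RNA polymerase I transcribes the long rRNA precursor. Small nucleolar ribonucleoproteins (snoRNPs) guide chemical modification of the precursor, and processome and assembly factors then cut and fold it into the small (40S) and large (60S) subunits. Myc, paired with Max, binds E-box sequences and is known to raise the transcription of many of these genes, and T cells that receive a T cell receptor (TCR) signal are known to induce Myc and to grow.

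Signals are the scanner's background-subtracted intensities, and those of different probes cannot be compared with each other. The 75th percentile of the signals was 436 on the WT array and 434 on the Bach2-deficient array before re-stimulation, and 313 and 353 after it, so the re-stimulated arrays were dimmer overall. All differences are therefore log2 values taken after each array was scaled to its own 75th percentile, and an equal raw signal on a dimmer array counts as a higher value. Probes for the same gene differed by a median SD of 0.0885 (log2) for the genotype difference before re-stimulation, 0.110 for that after it, 0.151 for the re-stimulation response in WT cells and 0.140 for that in Bach2-deficient cells, over 3852 genes with several probes. The scanner software's own error of a log2 difference was 0.204 to 0.214 for the members. Neither error covers differences between mice or cultures. In such bulk samples, fewer cells of a type and less RNA per cell cannot be told apart.

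Bach2 itself did not settle the labels. Its only probe (transcript NM_001109661) read 2932 in WT and 2633 in KO before re-stimulation, or -0.15 on the log2 scale, and 3310 and 3080 at 4 h, or -0.28. Whether the probe lies within the deleted part of the gene was not checked here, so these values say nothing about the deletion. "Bach2-deficient" below therefore means the array carrying that label.

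Re-stimulation came with higher scaled values of every measured member in both genotypes. Before scaling, the WT signals of Nop10 (15122 to 13090), Bop1 (9672 to 9285) and Nop14 (1943 to 1901) were lower at 4 h. In WT cells, the median log2 difference between 4 h and before was 1.15 over the 42 members, while that over all 12388 genes measured was -0.0052. In Bach2-deficient cells, the median was 1.06 over the members and 0.0087 over all 12395 genes. Among all genes, 49.8% had a positive difference in WT cells and 50.6% in Bach2-deficient cells. At least 2-fold higher values were found for 25 members in WT cells, where 13.2% of all genes passed this rule of size, and for 24 members in Bach2-deficient cells, where 12.4% of all genes did. No member was at least 2-fold lower, a state reached by 13.5% of all genes in WT and 13% in Bach2-deficient cells. 23 members were past 2-fold in both genotypes, 3 in 1 genotype only (Nhp2 and Dkc1 in WT, Wdr75 in Bach2-deficient cells) and 16 in neither.

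These counts depend on the scaling. When each array was scaled to its median signal, the median of all genes moved by -0.30 in WT and by -0.27 in Bach2-deficient cells, the members' medians were 0.85 and 0.79, and 14 and 11 members were at least 2-fold higher. Under that scaling 8.82% of all genes were at least 2-fold higher and 21.5% lower in WT cells, against 8.58% and 19.3% in Bach2-deficient cells. The members' median lay 1.16 above that of all genes in WT and 1.05 above it in Bach2-deficient cells under both scalings. This equality was fixed in advance, since a scaling moves all genes of an array by the same amount. Without the filter on low values, the members' median lay 0.82 above that of all genes in WT and 0.76 above it in Bach2-deficient cells.

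**Figure D1:**
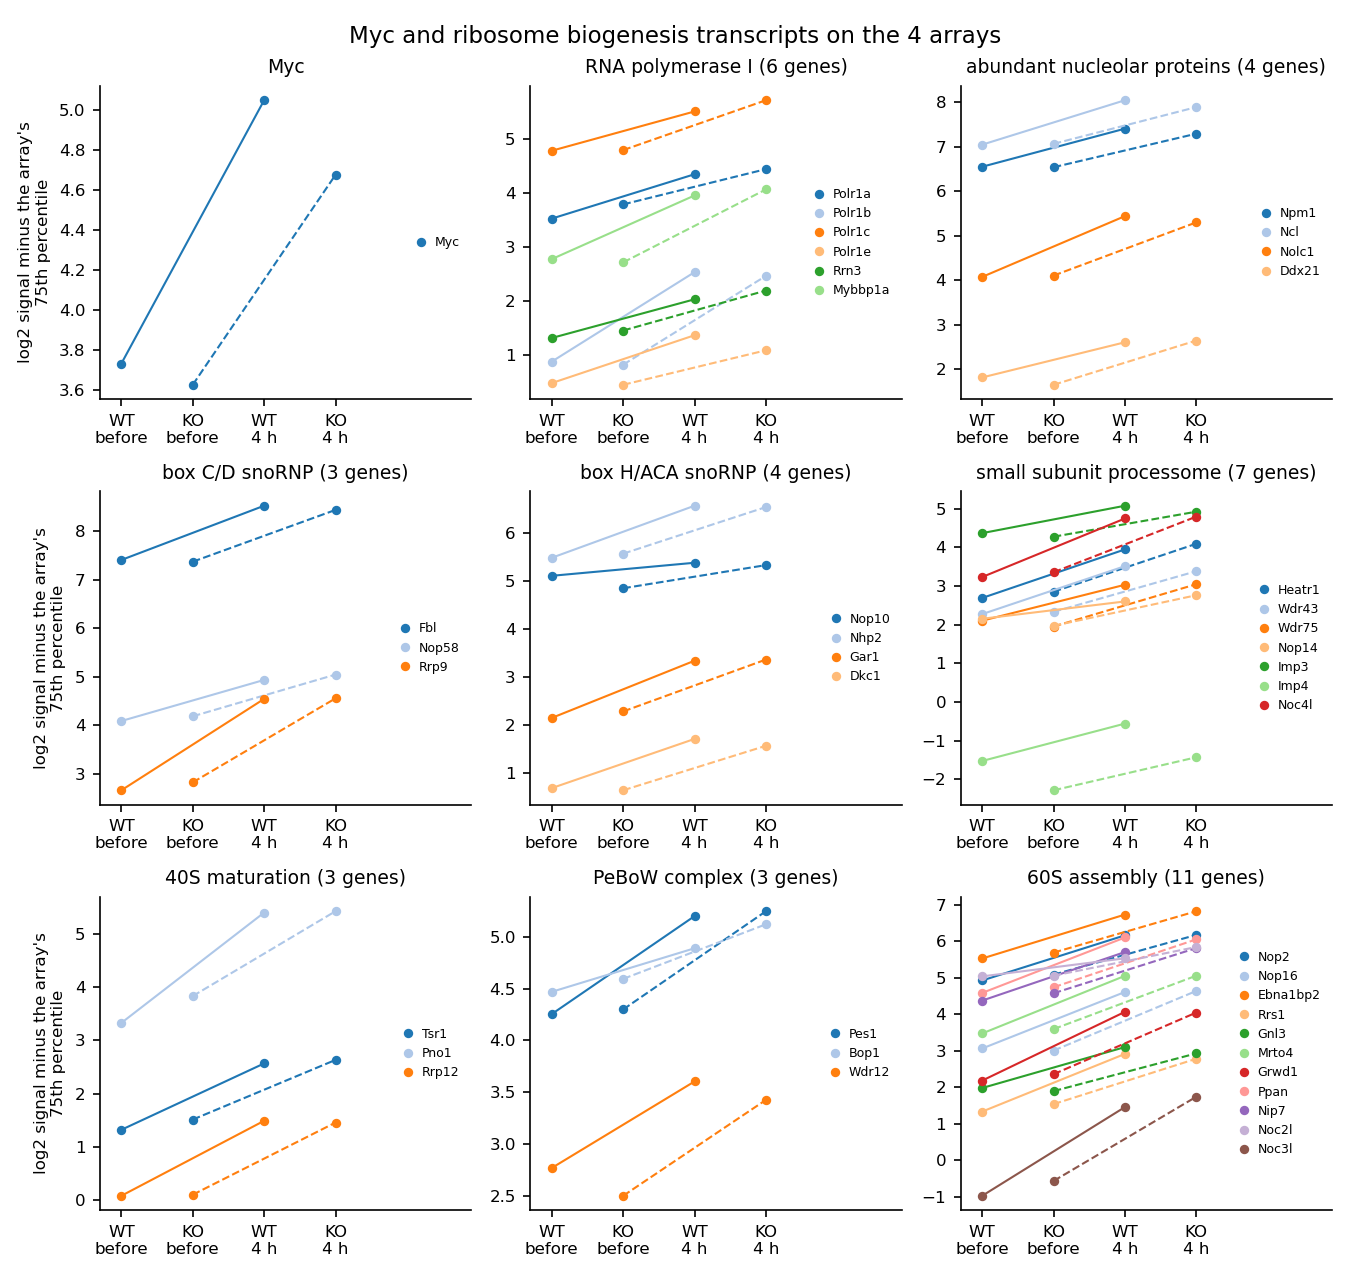
Scaled log2 signal (log2 signal minus the array's 75th percentile, y axis) of the 42 measured members on the 4 arrays (x axis), 1 panel per role and 1 colour per gene, with solid lines joining the WT arrays and dashed lines the Bach2-deficient (KO) arrays before and after 4 h. Every line runs upward, and the y axes differ between panels.

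Myc (transcript NM_010849) gave signals of 5787 in WT and 5351 in Bach2-deficient cells before re-stimulation, and 10341 and 9006 after it. Both re-stimulated arrays thus lay above both arrays from before, and the Bach2-deficient signal lay below the WT signal at each time. The log2 response was 1.32 (2.49-fold) in WT and 1.05 (2.07-fold) in Bach2-deficient cells. A larger response was seen for 8.60% of all genes in WT and for 11.4% in Bach2-deficient cells.

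The other Myc probes gave the same directions, although the response of the second in Bach2-deficient cells, 0.94, fell short of 2-fold. The second probe read 2564, 2413, 4749 and 3763 on the WT and Bach2-deficient arrays before and the WT and Bach2-deficient arrays after re-stimulation, an order kept for all lists of 4 signals that follow. The third read 515, 468, 1269 and 891. The genotype difference before re-stimulation was -0.11, -0.081 and -0.13 for the 3 probes, and that after re-stimulation was -0.37, -0.51 and -0.68. Myc thus read lower in Bach2-deficient cells on every probe and at both times, by more at 4 h. The differences before re-stimulation were smaller than the scanner software's error of 0.204 for the brightest probe. The probes read the same RNA samples, so they are not replicates. The 8 alternative settings gave -0.36 to -0.52 for the difference after re-stimulation and -0.10 to -0.17 for that before it.

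Since Myc with Max binds the E-box CACGTG, the members' promoters (RefSeq, GRCm38.p6, 250 bases before to 50 after the transcript start) were searched for it on both strands, of which the motif reads the same. A promoter was matched for 38 members, and Myc, Npm1, Fbl, Rrp12, Bop1 and Rrs1 were not matched. The E-box was found in 10 of the 38 (26.3%), in 8.09% of all 27025 genes with a promoter and in 11.6% of the 9524 of them measured in both responses. It lay before the start in Rrn3, Imp4 and Nop2, and after it in Mybbp1a, Wdr43, Ltv1, Tsr1, Pno1, Pes1 and Grwd1. The AP-1 motif, TGAGTCA or its reverse complement TGACTCA, which Bach2 can share with AP-1 factors, was found in 0 of the 38, in 5.95% of all genes and in 4.49% of those measured in both responses. 6 stretches follow, written 5′ to 3′ on the gene's strand with the E-box in capitals. They belong to the 3 members with the motif before the start and to 3 with it after the start whose responses were past 2-fold in both genotypes.
Nop2, chr6:125131796-125131855, plus strand: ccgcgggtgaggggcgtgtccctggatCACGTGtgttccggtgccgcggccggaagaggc
Rrn3, chr16:13780624-13780683, plus strand: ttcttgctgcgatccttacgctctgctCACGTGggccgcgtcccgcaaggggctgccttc
Imp4, chr1:34439681-34439740, plus strand: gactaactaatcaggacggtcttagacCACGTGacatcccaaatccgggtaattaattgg
Pno1, chr11:17211540-17211569, minus strand: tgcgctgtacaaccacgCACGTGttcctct
Grwd1, chr7:45830740-45830769, minus strand: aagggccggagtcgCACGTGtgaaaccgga
Tsr1, chr11:74898092-74898121, plus strand: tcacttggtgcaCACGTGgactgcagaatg
Counted from the start base as 1, the E-box begins at position -60 in Nop2, -48 in Rrn3, which has another at -215, and -121 in Imp4. Among the measured members, the median response of the 9 with an E-box was 1.24 in WT and 1.09 in Bach2-deficient cells, and that of the 27 without one was 1.09 and 1.03. The responses of members without the motif ran from 0.27 to 2.43 in WT and took in the whole range of those with it, 0.72 to 2.07.

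Among the 6 genes of RNA polymerase I transcription, the median response was 0.86 in WT and 0.83 in Bach2-deficient cells, and 2 were past 2-fold in both. Polr1b, the second-largest subunit of the enzyme, gave signals of 796, 762, 1806 and 1942, a response of 1.66 in WT and 1.65 in Bach2-deficient cells. Mybbp1a, a nucleolar protein that links rRNA transcription with processing, gave 2982, 2845, 4850 and 5916, a response of 1.18 and 1.36. In both genes each re-stimulated array was above each array from before. Polr1a (the largest subunit), Polr1c (a subunit shared with RNA polymerase III), Polr1e (a subunit of the enzyme) and Rrn3 (the initiation factor that brings the enzyme to the rDNA promoter) had responses of 0.72 to 0.89 in WT and 0.64 to 0.93 in Bach2-deficient cells, short of 2-fold.

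The 4 abundant nucleolar proteins had a median response of 0.93 in WT and 0.91 in Bach2-deficient cells, and by the brightest probes 1 of them was past 2-fold. This was Nolc1, a chaperone of snoRNPs, with signals of 7349, 7467, 13557 and 13880 and responses of 1.36 and 1.19, but its second probe gave 0.76 and 0.70. Ncl, which encodes nucleolin, gave 57459, 57937, 82179 and 83332, and its response of 1.00 in WT fell just short of the rule, beside 0.82 in Bach2-deficient cells. The 3 other Ncl probes were past 2-fold in WT (1.08, 1.16 and 2.32), and 2 of them were so in Bach2-deficient cells (1.04 and 1.49). Npm1 (nucleophosmin) and Ddx21 (an RNA helicase) had responses of 0.79 to 0.85 in WT and 0.75 to 0.99 in Bach2-deficient cells. The probes for Ddx21 did not give equal sizes, and both of its other probes were past 2-fold in each genotype, with responses of 1.78 and 1.48 in WT and 1.76 and 1.33 in Bach2-deficient cells.

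Of the box C/D snoRNP proteins, which carry out 2′-O-methylation of rRNA, 3 were measured and 2 were past 2-fold in both genotypes. Rrp9, a protein of the snoRNP that guides early cleavage of the precursor, gave signals of 2754, 3070, 7294 and 8291, with responses of 1.89 in WT and 1.73 in Bach2-deficient cells. Fbl, the methyltransferase fibrillarin, gave 74226, 72056, 115552 and 122787, with responses of 1.12 and 1.07. Nop58, a core protein of the particle, had responses of 0.85 and 0.86.

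The 4 box H/ACA snoRNP proteins, which form pseudouridine in rRNA, lay close to 2-fold with 1 exception. Gar1 gave signals of 1935, 2115, 3172 and 3640, and its response was 1.19 in WT and 1.08 in Bach2-deficient cells. Nhp2 gave 19630, 20738, 29876 and 33058, with responses of 1.09 and 0.97. Dkc1, the pseudouridine synthase dyskerin, gave 701, 676, 1023 and 1045, with responses of 1.03 and 0.93. Nhp2 and Dkc1 thus lay on either side of the 2-fold line by less than the spread between probes. Nop10, the smallest protein of the particle, had the lowest response of all members in WT cells (0.27) and in Bach2-deficient cells (0.48). Its response in WT cells was -0.025 when arrays were scaled to their medians, the sole change of direction among the members' responses over the settings run.

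The 7 proteins of the small subunit processome, the complex that folds and cuts the 5′ part of the precursor, had a median response of 0.97 in WT and 1.05 in Bach2-deficient cells. Noc4l gave signals of 4108, 4456, 8408 and 9813, with responses of 1.51 and 1.44. Heatr1 gave 2823, 3142, 4830 and 6031, with responses of 1.26 and 1.24. Wdr43 gave 2113, 2191, 3579 and 3687, with responses of 1.24 and 1.05. In these 3 genes, both arrays after re-stimulation were above both arrays from before. Wdr75 gave 1878, 1684, 2563 and 2921, and passed 2-fold in Bach2-deficient cells (1.09) but not in WT (0.93). Imp4 gave 152, 89.3, 213 and 131, with responses of 0.97 and 0.85. The Bach2-deficient signal of Imp4 was the lower at both times. At 4 h the Bach2-deficient raw signal lay below the WT raw signal from before. After scaling the order was reversed, with -1.43 at 4 h in Bach2-deficient cells and -1.52 before in WT. Imp3 and Nop14, further components of the processome, had responses of 0.71 and 0.45 in WT and 0.65 and 0.79 in Bach2-deficient cells.

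All 3 measured factors of late 40S maturation were past 2-fold in both genotypes, with a median response of 1.41 in WT and 1.35 in Bach2-deficient cells. Pno1, an RNA-binding factor needed to form the 3′ end of the small rRNA, gave signals of 4372, 6168, 13141 and 15091. Its response was 2.07 (4.19-fold) in WT and 1.59 (3.01-fold) in Bach2-deficient cells, in which the value before re-stimulation was already higher. Rrp12, which acts in the export of pre-ribosomes, gave 462, 467, 878 and 968, with responses of 1.41 and 1.35. Tsr1, a GTPase-like factor bound to the pre-40S particle, gave 1090, 1239, 1850 and 2185, with responses of 1.24 and 1.12.

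The PeBoW complex, which acts in processing of the precursor of the large subunit, had no member past 2-fold by its brightest probe, although all 3 were higher after re-stimulation in both genotypes. Pes1 gave signals of 8332, 8555, 11518 and 13428, with a response of 0.95 in each genotype. Wdr12 gave 2968, 2451, 3800 and 3789, with responses of 0.84 and 0.93. Bop1 had responses of 0.42 in WT and 0.53 in Bach2-deficient cells. The other probes for Pes1 and Wdr12 read larger, with 2.33 and 1.73 for Pes1 and 1.02 to 1.36 in WT and 1.00 to 1.20 in Bach2-deficient cells for Wdr12.

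The factors of 60S assembly had the largest median response of the role groups with several members, 1.52 in WT and, in Bach2-deficient cells, a median of 1.24 that was second to the 40S maturation factors. 10 of the 11 were past 2-fold in both genotypes. Noc3l, which travels with the early 60S particle, gave signals of 223, 295, 861 and 1182. Its response, 2.43 (5.38-fold) in WT and 2.30 (4.94-fold) in Bach2-deficient cells, was the highest of all members, and 3.30% and 3.31% of all genes had a larger one. Grwd1, a chaperone of a ribosomal protein of the large subunit, gave 1985, 2231, 5239 and 5833, with responses of 1.88 and 1.69. Its second probe gave 1.89 and 1.64.

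Rrs1 and Mrto4 act on proteins of the large subunit's protrusions, and both responded by more than 1 in each genotype. Rrs1 gave 1103, 1265, 2359 and 2429, with responses of 1.58 in WT and 1.24 in Bach2-deficient cells. Mrto4 gave 4851, 5245, 10371 and 11736, with responses of 1.58 and 1.46. By its brightest probe, Nop16, a nucleolar protein of the early particle, was one of few in the group with the larger response in Bach2-deficient cells. Its signals were 3649, 3490, 7635 and 8787, and its responses 1.55 and 1.63. The second Nop16 probe gave the larger response in WT cells, with 1.91 and 1.69. Ppan, a factor of early 60S processing, gave 10464, 11596, 21450 and 23370, with responses of 1.52 and 1.31. Nip7 acts in the same pathway, and its signals of 9050, 10353, 16281 and 19806 gave responses of 1.33 and 1.24. The last 3 past 2-fold lay closer to the rule. Nop2, an rRNA cytosine methyltransferase, gave 13251, 14731, 22357 and 25424, with responses of 1.24 and 1.09. Ebna1bp2 gave 20099, 22373, 33137 and 39827, with responses of 1.20 and 1.13, and its second probe gave 0.65 and 0.66. Gnl3, the GTPase nucleostemin, gave 1725, 1619, 2685 and 2689, with responses of 1.12 and 1.03. Noc2l, a partner of Noc3l, was the exception of the group, with responses of 0.49 in WT and 0.78 in Bach2-deficient cells.

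**Figure D2:**
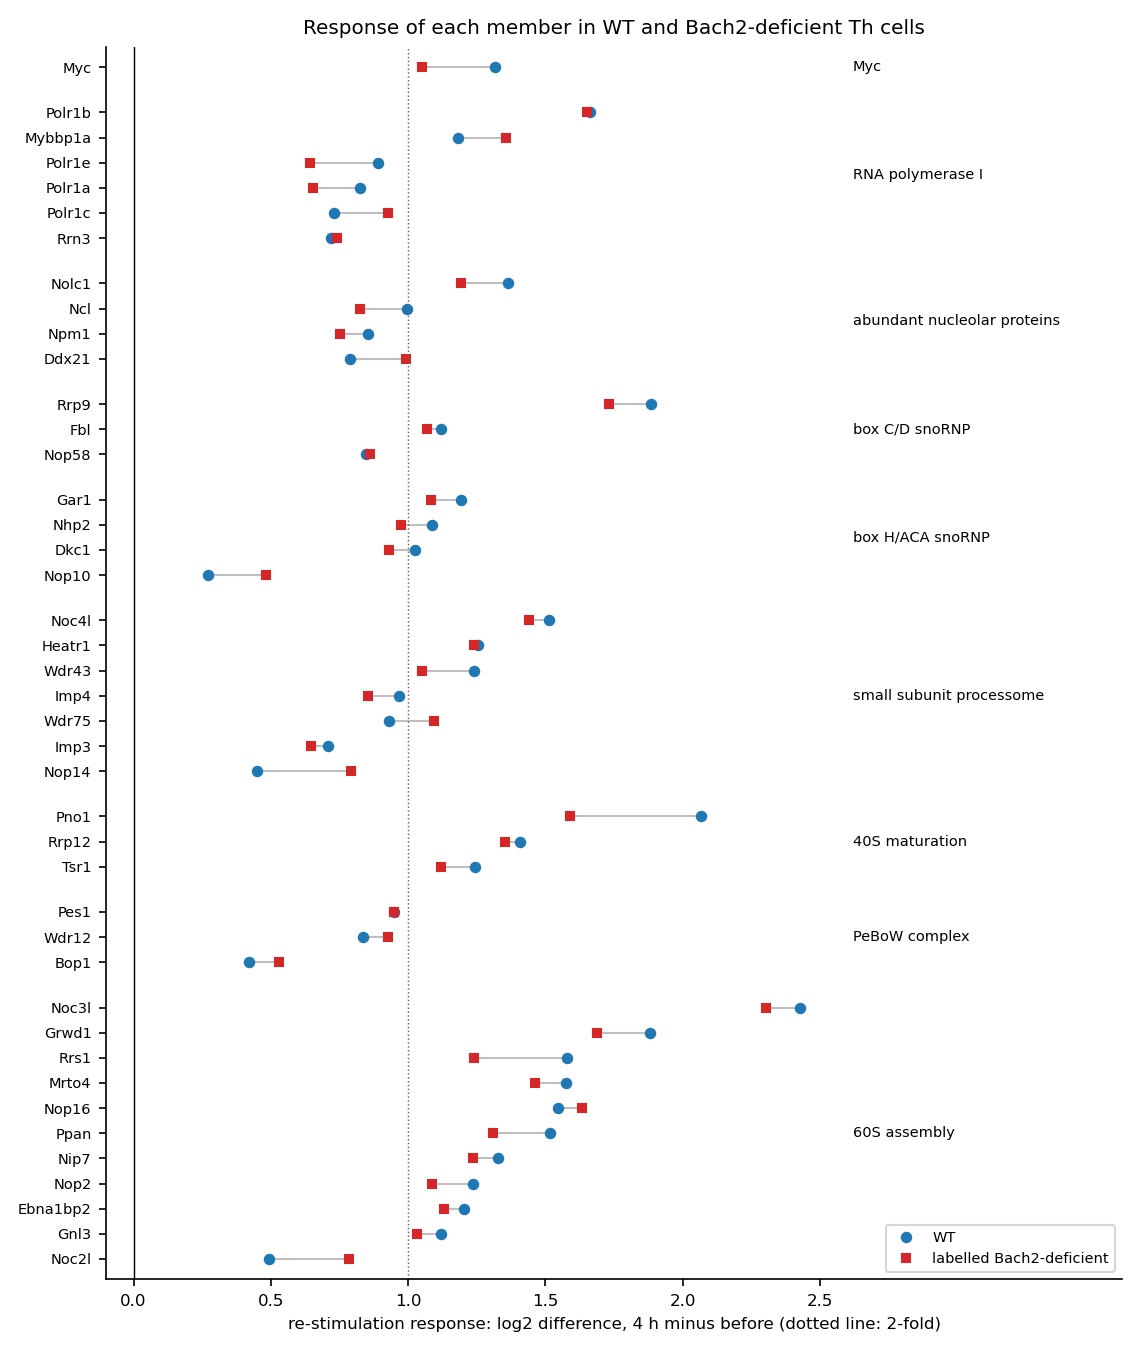
Re-stimulation response (log2 difference, 4 h minus before, x axis) of each of the 42 measured members in WT (blue circles) and Bach2-deficient cells (red squares), grouped by role, with 1 array per point. All points lie right of 0, from 0.27 for Nop10 in WT to 2.43 for Noc3l in WT, and 23 genes lie right of the dotted 2-fold line in both genotypes.

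Other probes gave the same direction of the responses but not always the same side of 2-fold. For 17 members there were 22 further probes well above background on all 4 arrays, and each gave a positive response in both genotypes, with a median of 1.22 (range 0.55 to 2.33) in WT and 1.02 (0.55 to 1.76) in Bach2-deficient cells. The probes of a gene lay on both sides of 2-fold for 7 of these 17 members in WT (Ncl, Nolc1, Ddx21, Dkc1, Pes1, Wdr12 and Ebna1bp2). In Bach2-deficient cells they did so for 9, which were Myc, Wdr43 and Nip7 and the same genes as in WT without Dkc1. The order of the members was similar in the genotypes, whose responses share no array but lie on 1 slide. Across the 42 members, the responses gave Pearson's r of 0.935 and Spearman's rho of 0.926, beside 0.899 and 0.890 across the 10810 genes that passed the background filter on every array. Genes are not independent replicates, so these are descriptions.

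**Figure D3:**
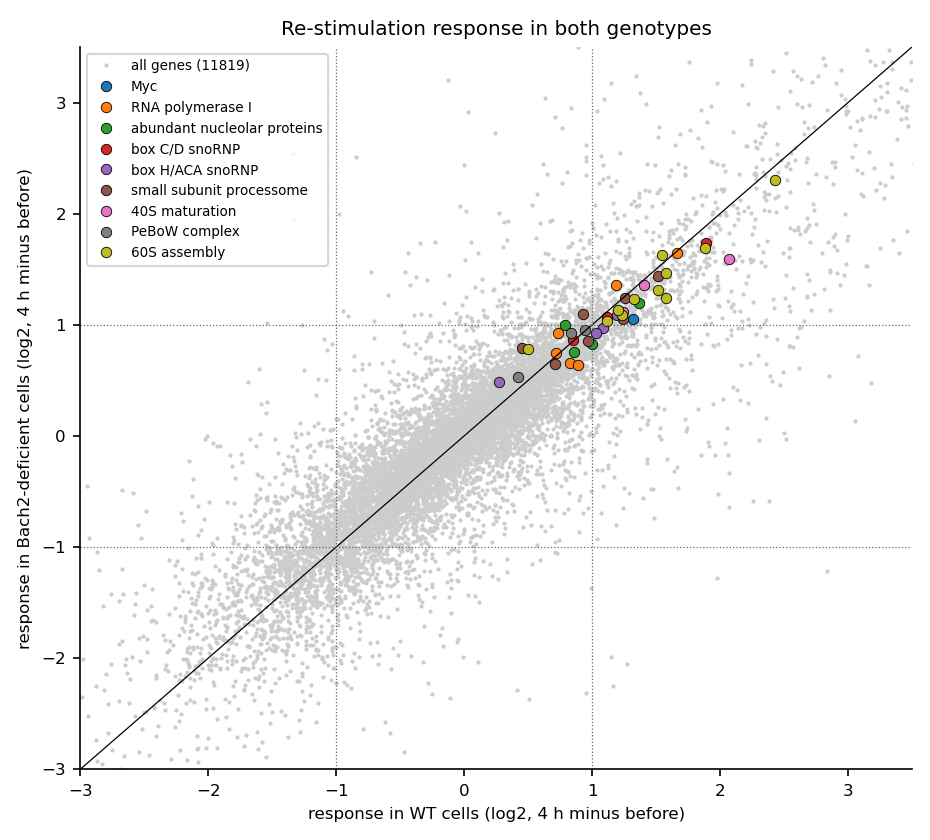
Response in Bach2-deficient cells (log2, 4 h minus before, y axis) against that in WT cells (x axis) for the 11819 genes measured in both (grey, those beyond the axis limits not shown) and the members coloured by role, with the diagonal marking equal responses and dotted lines marking 2-fold. The members lie along the diagonal in the upper right of the plot, with r of 0.935 over 42 genes.

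The response was larger in WT cells for 29 of the 42 members (69.0%) and for 50.5% of the 10810 genes above background on every array. The median of the difference (Bach2-deficient response minus WT response) was -0.090 over the members and -0.0038 over all genes, and over the settings the members' median was -0.057 to -0.090. Of the 22 further probes, 17 lay below 0, with a median of -0.14. The difference was within 0.25 for 37 members (88.1%) and for 59.1% of the 10810 genes. The exceptions were Pno1 (-0.48), Rrs1 (-0.34) and Myc (-0.27), with the larger response in WT cells, and Nop14 (0.34) and Noc2l (0.29), with the larger response in Bach2-deficient cells. The 2 probes for Noc2l gave 0.29 and 0.18, whereas the second probe for Nop14 gave 0.0078. The difference of the responses is also the difference of the genotype differences, so it adds no measurement to them.

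Between genotypes, no member was 2-fold apart at either time by its brightest probe. Before re-stimulation, the median log2 difference (Bach2-deficient minus WT) was 0.037 over the members and -0.0033 over all 12136 genes, and after it 0.011 and 0.016. The members' median was -0.024 before re-stimulation with arrays scaled to their medians and -0.037 after it with the mean over probes, so neither has a direction that holds under all settings. The count of members at least 2-fold higher or lower was 0. Of all genes, 5.26% were at least 2-fold higher and 2.82% lower in Bach2-deficient cells before re-stimulation, and 5.17% higher and 3.85% lower after it. The difference was within 0.25 for 36 members (85.7%) before re-stimulation and for 37 (88.1%) after it, against 62.4% and 56.3% of the 10810 genes above background on every array.

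By the brightest probes, Imp4 had the largest genotype difference of the set at both times, -0.76 before and -0.87 after re-stimulation, from the signals given above. It rests on 1 probe, and another background correction and normalization moved the value before re-stimulation to -0.48 in the setting with normexp and quantile normalization. Noc3l was higher in Bach2-deficient cells at both times, by 0.41 and 0.28. By the brightest probes, the other members beyond 0.25 were so at 1 time only. Before re-stimulation these were Pno1 (0.50), Polr1a (0.26), Nop10 (-0.26) and Wdr12 (-0.27). After re-stimulation these were Myc (-0.37), Noc2l (0.31) and Polr1e (-0.28).

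The genotype differences before and after re-stimulation share no array, and 29 of 42 members (69.0%) had the same sign at both times, as had 67.3% of the 10810 genes. Pearson's r between them was 0.646 and Spearman's rho 0.425 across the members, and 0.619 and 0.491 across the 10810 genes. Without Imp4, r across the other 41 members was 0.388. Further probes for the members were lower in Bach2-deficient cells in 17 of 22 cases after re-stimulation, with a median of -0.13, although the brightest probes were lower for 19 of 42 genes. The lowest was the second probe for Nip7, at -1.77 with signals of 33.8, 21.5, 77.1 and 25.5, whereas the brighter probe gave 0.11. The mean over both Nip7 probes was -0.83.

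**Figure D4:**
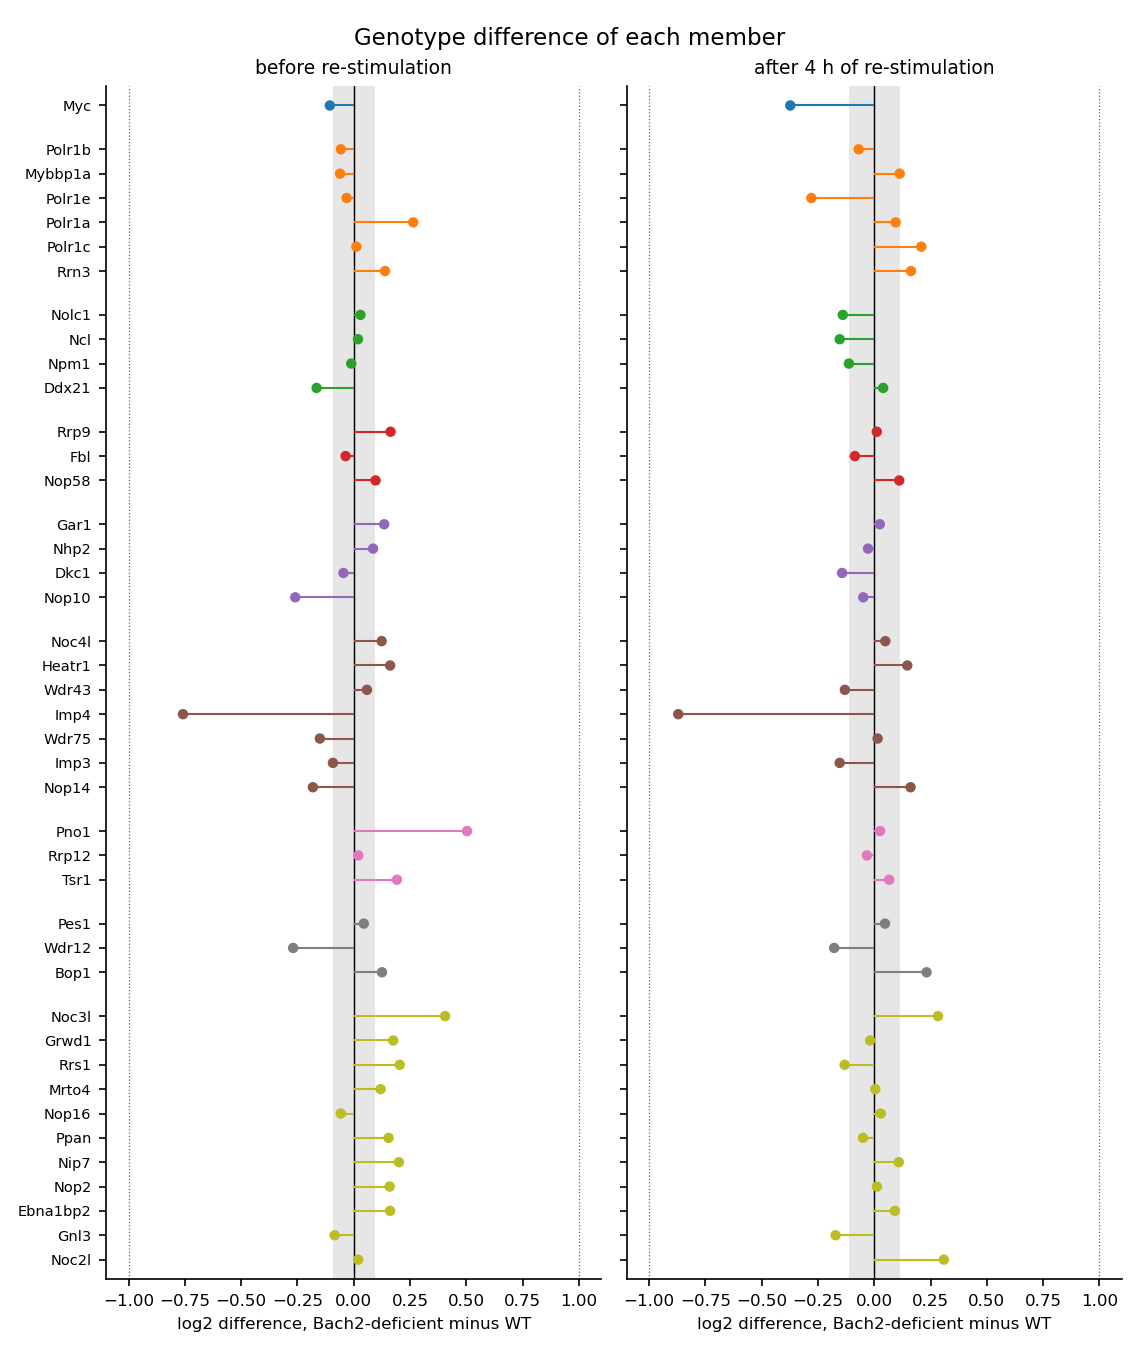
Genotype difference (log2, Bach2-deficient minus WT, x axis) of each of the 42 measured members before (left) and after 4 h of re-stimulation (right), coloured by role, with 1 array per genotype and time, the median SD between probes of a gene as a grey band (0.0885 and 0.110) and dotted lines at 2-fold. No point reaches 2-fold, and Imp4 lies farthest from 0 in both panels.

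The arrays labelled Bach2-deficient differed from the WT arrays in more than the label. All 3 measured Y-linked genes were well above background on the Bach2-deficient arrays only, with summed signals over the list of 4 of 1696 and 1458 against 18 and 18 in WT, while both sets of mice are labelled female. All 7 measured genes of a mast cell and basophil list of 11 were higher in Bach2-deficient cells. At least 2-fold differences were found for 5 of them before and 6 after re-stimulation. However, only 2 genes of the list were well above background on a WT array. The others passed the filter through the Bach2-deficient arrays alone, so their direction follows from the filter and their folds depend on the lowest signal used for WT. Summed signals over the list were 1463 and 1911 against 213 and 327. Mcpt8, a basophil protease, was not well above background on either WT array and gave 309 and 333 on the Bach2-deficient arrays, and Ms4a2, Mcpt4 and Tpsb2 did not clear background anywhere. The 12 T cell identity genes, among them Cd3e and Cd4, were well above background on all arrays, with a median genotype difference of 0.020 before re-stimulation, which turned negative with scaling to the median, and 0.057 after it. The Y-linked signal divides the arrays as the genotype label does, so genotype and sex of the cells cannot be told apart in any genotype comparison here. The part of these differences in the members' values was not tested.

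Beyond the members, other genes of the same pathways were read from lists. Of 73 further ribosome biogenesis factors, 72 were measured, and 71 were higher after re-stimulation in each genotype. Their median response was 0.90 in WT and 0.95 in Bach2-deficient cells, and 30 and 28 were at least 2-fold higher. Ranked by the larger of the responses in the genotypes, the first 3 were Rcl1, with 2.07 in WT and 1.82 in Bach2-deficient cells, Mdn1, the AAA-type ATPase that remodels the pre-60S particle, with 1.78 and 1.93, and Rrp15, with 1.89 and 1.52. No gene of this list was 2-fold apart between genotypes. The 9 further RNA polymerase I genes were all higher after re-stimulation, with medians of 0.84 and 0.68. Taf1a (1.67 and 1.94) and Taf1c (1.48 and 1.38), subunits of the factor that selects the rDNA promoter, were past 2-fold in both genotypes, and Cd3eap, a subunit of the enzyme, in WT only (1.27 and 0.89).

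Structural ribosomal protein genes had lower median responses than the factors that assemble them. Of 78 measured cytosolic ribosomal protein genes, 78 were higher at 4 h in WT cells and 77 in Bach2-deficient cells, with medians of 0.40 and 0.30 and none past 2-fold. With normexp background correction and quantile normalization these medians were 0.053 and 0.0070. After re-stimulation and scaling, 76 of the 78 were lower in Bach2-deficient cells, by a median of -0.13 that was -0.049 to -0.16 over the settings. The number higher in Bach2-deficient cells was 2 to 13 over the settings. Before scaling, the summed signal of the list at 4 h was the higher in Bach2-deficient cells, with 1.06e+07 against 1.03e+07 in WT. The 76 mitochondrial ribosomal protein genes had medians of 0.18 and 0.23 that turned negative when arrays were scaled to their medians, and the largest response was that of Mrps6 (1.99 and 1.90). The 36 measured translation initiation factors had medians of 0.46 and 0.49, with Eif1a (1.43 and 1.36) and Eif6, which keeps the free 60S subunit from joining (1.22 and 1.06), past 2-fold in both genotypes and Eif3j1 in WT only (1.06 and 0.94).

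RNA polymerase III genes, whose products make tRNAs among other small RNAs, differed in direction. 13 of 21 were higher at 4 h in WT cells and 17 in Bach2-deficient cells, with medians of 0.12 and 0.077 that turned negative when arrays were scaled to their medians. Polr3d was higher (1.69 and 1.67) and Polr3gl lower (-2.06 and -2.18), with Polr3gl signals of 4547, 3123, 780 and 558. The 14 exosome genes, which degrade and trim RNA, had medians of 0.29 and 0.43, the first of which turned negative under the same scaling, and Exosc6 was past 2-fold in WT (1.05) but not in Bach2-deficient cells (0.62).

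**Figure D5:**
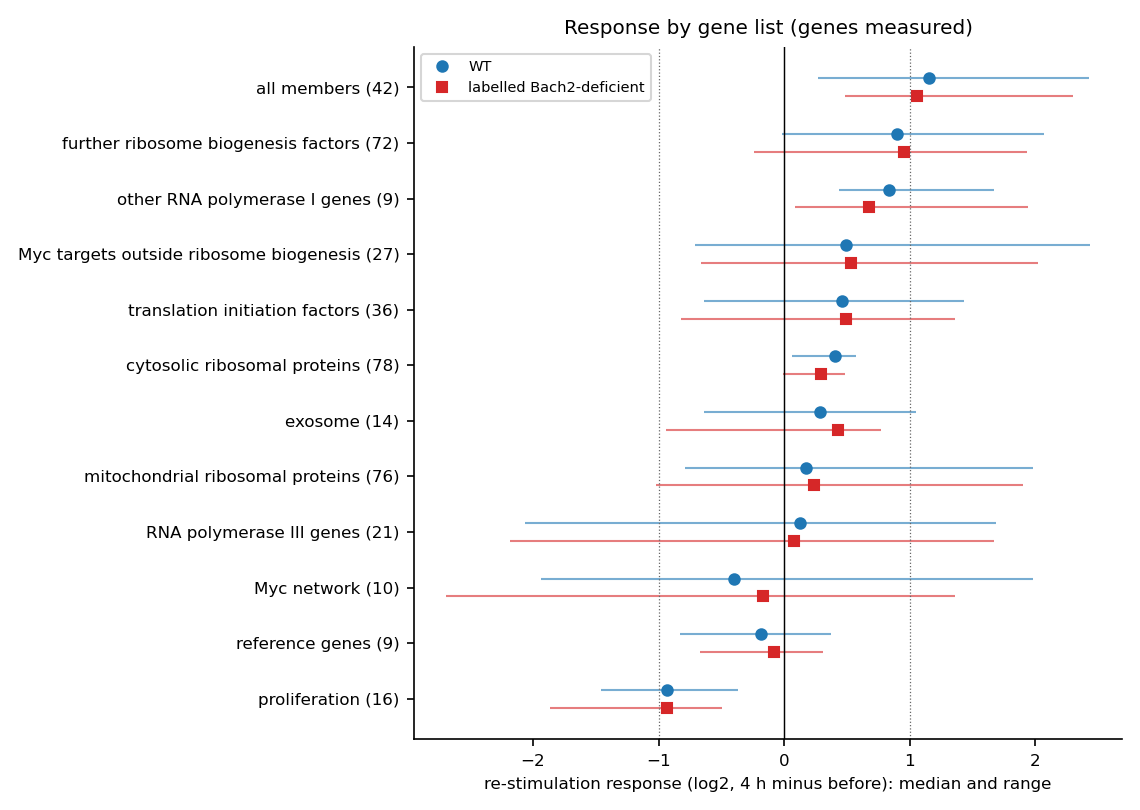
Median (symbols) and range (lines) of the re-stimulation response (log2, 4 h minus before, x axis) over the members and 11 other gene lists, in WT (blue circles) and Bach2-deficient cells (red squares), with the number of genes measured in WT in brackets and dotted lines at 2-fold. The members' medians of 1.15 and 1.06 stand highest of those drawn, and the medians of the proliferation genes lowest.

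Partners and antagonists of Myc varied in direction. Of 11 Myc network genes, 10 were measured, and 6 of them were lower after re-stimulation in each genotype. Max, the obligate partner of Myc, had responses of 0.017 in WT and -0.25 in Bach2-deficient cells. Mxd3, which pairs with Max against Myc, gave signals of 4724, 3606, 1039 and 454, with responses of -1.70 and -2.69. Mxd1, of the same family, gave 1326, 1721, 3755 and 3582, and was higher after re-stimulation, by 1.98 and 1.36. Mycn, a relative of Myc, gave 389, 370, 73.0 and 281, with responses of -1.93 in WT and -0.10 in Bach2-deficient cells. Between genotypes at 4 h, Mycn was 1.77 higher and Mxd3 1.37 lower in Bach2-deficient cells on the log2 scale, and these were the sole Myc network genes past 2-fold in that comparison.

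Myc targets outside ribosome biogenesis shared the direction of the members in most cases. Of 27 measured, 21 were higher after re-stimulation in WT and 22 in Bach2-deficient cells, with medians of 0.49 and 0.53, and 7 and 8 were past 2-fold. The largest were Shmt1, of folate metabolism (2.43 and 2.02), Srm, spermidine synthase (1.93 and 1.75), and the cyclin gene Ccnd2 (1.76 and 1.61). Genes of proliferation went the other way, since 16 of 16 were lower after re-stimulation in both genotypes, with a median of -0.93 in each. Between genotypes, 12 of the 16 were lower in Bach2-deficient cells before re-stimulation and 13 after it. The median genotype difference over the 16 was -0.21 before and -0.38 after. Top2a, a topoisomerase of dividing cells, gave 5596, 3444, 1456 and 827, with responses of -1.46 and -1.76. Of 17 early genes of the TCR response, 16 were past 2-fold in each genotype. The response was smaller in Bach2-deficient cells for 14 of the 17 and larger for 3. It was at least 2-fold smaller for 7, beside 3.76% of all genes. Before re-stimulation, 10 of the 14 measured were higher in Bach2-deficient cells and 4 were lower, while 49.6% of all genes were higher. At 4 h, 13 of the 17 were lower in Bach2-deficient cells and 4 were higher, while 51.9% of all genes were higher. The difference of the responses holds both of these genotype differences. Of the 17, 13 were well above background on all 4 arrays. Nr4a3, Egr3, Fosb and Il2 were not so on 1 or both arrays from before. Their folds are therefore lower bounds, and no median is given. The lowest signal well above background, to which such values were raised, was 15.1 in WT and 16.8 in Bach2-deficient cells before re-stimulation. For these genes the difference of the responses depends on those limits, and the counts above include them. The 9 reference genes had medians of -0.18 and -0.084.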

How the data were processed

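Per the labels, total RNA of 4 samples (WT and Bach2-deficient Th cells, before and after 4 h of re-stimulation) was labelled with Cy3 and hybridized to 1-colour Agilent whole mouse genome arrays, and Feature Extraction 10.7 gave the deposited signal intensity of each spot. The authors also deposited a log2 table, which matches the scaled log2 values used here (tolerance 0.01, on each array 41001 or more of 41173 probes) and was used as an alternative only.

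Control spots and outlier flags were left out (107 to 120 spots per array), spots of a probe were averaged, and log2 intensities were scaled by subtracting the 75th percentile of their array (Python 3.11.15, numpy 2.4.6, pandas 2.3.3 and scipy 1.17.1). The files do not name genes, so probes were named through RefSeq accessions (27479 probes, 66.7%), and the brightest probe stood for a gene. A gene was used in a comparison if well above background on at least 1 of the arrays compared, with a dimmer value raised to the lowest signal well above background. On the 4 arrays, 53.6% to 54.0% of probes were well above background and no spot was saturated. Their number limits the precision. All arrays came from 1 slide and 1 scan time.

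Each condition had 1 array, so size (2-fold) replaced a test. Alternatives were scaling to the median or to probes well above background, quantile normalization, normexp with quantile normalization (R 4.3.3, limma 3.58.1), the mean over probes, no filter, a stricter filter and the authors' log2 table. Signals on all arrays are given for Myc, members past 2-fold and the widest 2 of each role, and for lists at most the 3 largest. The members, lists and rules were chosen with earlier results of these data known. Scripts were tested on simulated data.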

Additional observations from a re-analysis of the deposited data

Results flagged for a closer look

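For 2 members the genotype difference had opposite signs before and after re-stimulation, beyond the spread between probes, and the difference between the times was not tested. At neither time was the genotype difference of these members clearly beyond the scanner software's error of 0.204. Nop14, a processome component, was 0.18 lower in Bach2-deficient cells before and 0.16 higher after re-stimulation on the log2 scale, a shift of 0.34. Its signals were 1943, 1705, 1901 and 2398 on the WT and Bach2-deficient arrays before and the WT and Bach2-deficient arrays after re-stimulation. The second Nop14 probe gave 0.059 and 0.067, both above 0. Rrs1, a 60S assembly factor with 1 probe, was 0.20 higher before and 0.13 lower after, a shift of -0.34.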

How the results depend on the processing

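The members' responses all stayed above 0 under all 8 alternatives, except that of Nop10 in WT cells, which was -0.025 with scaling to the median. That scaling lowered the members' median response to 0.85 in WT and 0.79 in Bach2-deficient cells and the number at least 2-fold higher to 14 and 11. With normexp and quantile normalization the medians were 0.97 and 0.92. Over all settings the number at least 2-fold higher was 14 to 27 in WT and 11 to 26 in Bach2-deficient cells, and the number 2-fold apart between genotypes was 0 in every setting. With the mean over probes, the genotype difference before re-stimulation turned to 0.033 for Ddx21, -0.12 for Ebna1bp2, -0.22 for Nip7 and -0.13 for Nolc1, and that after it to -0.15 for Ebna1bp2, -0.83 for Nip7, -0.12 for Nop16 and -0.042 for Pes1, which left 19 members above 0 in place of 23. Scaling to the median and both quantile settings gave 3 to 8 members another sign per genotype comparison. The causes of these shifts were not tested. No array could be left out, since each condition has 1. No paired analysis was possible because each group holds 1 array and the groups share fewer than 2 replicate numbers.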
